A study of Mus musculus with 12 samples.

Results

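The 10 immediate early genes Fos, Fosb, Jun, Junb, Egr1, Atf3, Ier2, Ier3, Nr4a1 and Dusp1 were measured by mRNA sequencing in the kidneys of 12 male mice. They were picked by gene name from the 57490 genes of the count table, and all 10 were found. All 10 also passed the filter on low counts, which left 17431 genes for testing.

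The mice were 13 weeks old, on the BKS background, and fell into 3 groups of 4 separate animals. Ctrl mice were heterozygotes (db/m, which the labels also call wild-type) and were gavaged with purified water. Model mice carried the leptin receptor mutation on both alleles (db/db, BKS.Cg-Dock7m +/+ Leprdb/JNju), were chosen for high random blood glucose and also received water. YHY mice were db/db mice given a water extract of Yiqi Huoxue Yangyin Decoction, a herbal mixture, by gavage once daily for 4 weeks, with a labelled concentration of 6.24 g/mL. The study had several dose groups of this extract, and which of them was sequenced is not given in the sources used here. According to the labels the tissue was whole kidney, whereas the series design speaks of renal cortex. All db/db mice share obesity and diabetes from a defect in leptin signalling, so the effects of high glucose, body weight and missing leptin action cannot be told apart here.

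Immediate early genes are transcribed within minutes of a stimulus, before any new protein has to be made, because the factors that switch them on are already in the cell and are activated by phosphorylation. Several encode transcription factors: Fos, Fosb, Jun and Junb pair up as AP-1, Atf3 joins the same dimers, Egr1 is a zinc finger protein and Nr4a1 an orphan nuclear receptor. Others act back on the signal, as Dusp1 does by removing phosphate from MAP kinases. In kidney they respond to growth factors, injury and low blood flow, and they also rise during dissection and handling of tissue, so their level at collection holds the history of the sample as well as the state of the animal. The study's methods state that mice were killed under CO2 after urine collection in metabolic cages, and the series design states that tissue was snap-frozen. The time from death to freezing and the order in which groups were dissected are not given in the sources used here.

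Library depth differed between groups. Total counts were 29632718 to 33276634 in Ctrl, 24415658 to 29784346 in Model and 25149764 to 29698342 in YHY mice. Transcripts of the mitochondrial genome took 18.4% to 22.7% of counts in Ctrl, 41.2% to 58.9% in Model and 53.8% to 64.6% in YHY, so every db/db library held fewer counts of nuclear genes than any Ctrl library. The 10 genes together received between 3064 counts (YHY 3) and 6832 counts (Ctrl 4). Levels below are in CPM after TMM scaling, which sets the typical gene level between libraries, and levels of different genes are compared only as FPKM, which also divides by gene length.

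Kidney markers were present in every mouse. The phosphate transporter Slc34a1 of the proximal tubule ran from 966 to 2792 CPM, and the endocytic receptor gene Lrp2 was detected in all mice, at 753 to 898 CPM in Ctrl mice, 213 to 302 in Model mice and 76.0 to 285 in YHY mice. Markers of adrenal tissue summed to 1.27 to 6.05 CPM with Cyp11b2 at 0 in all mice, and those of fat to 0.319 to 1.81 CPM. Lepr itself did not differ between Model and Ctrl by the test (log2 fold change −0.54, adjusted P = 0.292), and counts over a whole gene do not show which allele a mouse carries. In bulk tissue, fewer cells of a type and less RNA per cell cannot be told apart, for these markers and for the early genes alike.

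The genes are compact. Positions are those listed in the count table, for which the submitters' processing notes name the build GRCm39. Ier3 (ENSMUSG00000003541) lies at chr17:36132576-36133815 on the plus strand, and Dusp1 (ENSMUSG00000024190) at chr17:26724564-26781102 on the minus strand of the same chromosome. Ier2 (ENSMUSG00000053560) at chr8:85387960-85389483 and Junb (ENSMUSG00000052837) at chr8:85701113-85705347 are both on the minus strand. Fos (ENSMUSG00000021250) is at chr12:85520664-85524047 on the plus strand, and Jun (ENSMUSG00000052684) at chr4:94937271-94940459, Fosb (ENSMUSG00000003545) at chr7:19036621-19043976 and Atf3 (ENSMUSG00000026628) at chr1:190902493-190950236 are on the minus strand. Nr4a1 (ENSMUSG00000023034) is at chr15:101152150-101172676 on the plus strand. From first to last base, 7 of the 10 spanned under 8000 bases, against 19.2% of the 14217 protein-coding genes tested. The listed span of Dusp1 is 56539 bases, long for this set.

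Whether counting used the strand is not given in the sources used here, so reads from overlapping genes may be shared. The end of Junb overlaps the antisense gene Prdx2 at chr8:85701113-85701463, and the listed start of Dusp1 overlaps the antisense gene Ergic1 at chr17:26780463-26781102. Both neighbours were well expressed, with up to 8242 counts for Prdx2 and 2879 for Ergic1 in a mouse. The values of Junb and Dusp1 are therefore less certain than those of Ier2 and Ier3, which overlap no other listed gene. Jun overlaps the antisense RNA Junos, which had at most 57 counts.

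Early genes share short promoter elements that bind factors waiting in the cell. Promoter sequences were available for 8 of the 10 genes (RefSeq, GRCm38.p6, and not for Egr1 and Ier2), and the 250 bases before the start are shown for Dusp1, Junb and Ier3, which were higher in Model than in Ctrl, and for Fos and Jun, for which no difference passed the test. Capitals mark the letters TGACG, the short form of a cyclic AMP response element (CRE), the full element TGACGTCA and its relative TGACNTCA, and the TATA box TATAAA, each searched on both strands. The full element contains the short one and is one form of TGACNTCA. The stretches lie at chr17:26508473-26508722 (Dusp1, minus strand), chr8:84978749-84978998 (Junb, minus), chr17:35821463-35821712 (Ier3, plus), chr12:85473640-85473889 (Fos, plus) and chr4:95052223-95052472 (Jun, minus), each written in the direction of transcription.
Dusp1: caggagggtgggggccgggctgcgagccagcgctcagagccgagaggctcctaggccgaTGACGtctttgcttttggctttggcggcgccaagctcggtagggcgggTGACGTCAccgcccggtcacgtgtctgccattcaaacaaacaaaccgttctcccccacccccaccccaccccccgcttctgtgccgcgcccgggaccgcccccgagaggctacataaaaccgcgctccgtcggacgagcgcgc
Junb: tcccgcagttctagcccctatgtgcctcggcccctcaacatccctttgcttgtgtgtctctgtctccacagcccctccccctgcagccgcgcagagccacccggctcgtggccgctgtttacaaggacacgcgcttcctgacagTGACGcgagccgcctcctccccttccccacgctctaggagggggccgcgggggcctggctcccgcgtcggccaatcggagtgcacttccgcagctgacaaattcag
Ier3: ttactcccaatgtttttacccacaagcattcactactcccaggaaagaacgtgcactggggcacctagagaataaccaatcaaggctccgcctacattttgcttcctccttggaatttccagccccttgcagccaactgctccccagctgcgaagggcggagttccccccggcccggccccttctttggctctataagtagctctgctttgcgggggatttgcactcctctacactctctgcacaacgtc
Fos: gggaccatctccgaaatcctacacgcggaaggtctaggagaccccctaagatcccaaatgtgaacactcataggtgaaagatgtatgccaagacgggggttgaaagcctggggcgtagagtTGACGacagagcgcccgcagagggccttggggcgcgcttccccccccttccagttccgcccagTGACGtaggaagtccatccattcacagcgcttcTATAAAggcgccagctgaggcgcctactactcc
Jun: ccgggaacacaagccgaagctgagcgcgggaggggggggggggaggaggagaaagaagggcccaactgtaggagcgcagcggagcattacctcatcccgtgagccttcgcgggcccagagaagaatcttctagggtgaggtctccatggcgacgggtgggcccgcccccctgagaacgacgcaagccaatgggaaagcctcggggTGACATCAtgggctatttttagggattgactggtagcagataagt

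The short element TGACG was found in 6 of the 8 promoters (Fos, Fosb, Junb, Atf3, Nr4a1 and Dusp1), against 17.8% of 32851 promoters of the same length. That share was not matched for base composition. G and C made 58.4% of the stretch of Fos, 66.4% of Junb and 68.4% of Dusp1, beside a median of 52.4% over all promoters. Jun (61.2%) and Ier3 (54.4%), without the short element, also lay above that median. In Fos it began 129 and 66 bases before the start, ahead of a TATA box at 33. Dusp1 held it at 191 and, as the full TGACGTCA, at 143 bases before the start, a sequence found in 1.55% of all promoters. Nr4a1 had 4 matches on the opposite strand, at 233, 213, 69 and 40 bases. Jun held no short element but the relative TGACATCA at 45 bases, and TGACNTCA occurred in 7.49% of promoters. The TATA box was present in Fos alone of the 8 and in 12.4% of all promoters. No promoter of the 8 held the AP-1 letters TGANTCA (6.75% of all) or a CArG box, the binding element of serum response factor (1.47% of all), and the Ier3 stretch held none of the motifs searched. The short element was present both in genes that passed the test (Junb and Dusp1) and in genes that did not (Fos, Fosb, Atf3 and Nr4a1). A match is a description of letters and not of binding, and elements farther from the start lie outside these windows.

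The messages of early genes are also short-lived, and many carry AU-rich elements after the coding region that recruit decay factors. The pentamer ATTTA was counted in the 3′ UTR of 1 annotated transcript a gene (GENCODE M21, GRCm38). It was present in 9 of the 10 genes, all but Ier2, against 61.8% of 21005 genes. Ier3 had 5 pentamers, or 8.16 per kilobase, Dusp1 had 4 (5.8), Nr4a1 had 3 (5.52) and Fos had 4 (4.91), where the median gene had 1.2. Of the 10 genes 8 lay above that median, and Fosb (0.466 per kilobase) and Ier2 lay below it. The longer form TTATTTATT occurred in Fos and Dusp1 and in 6.99% of all genes. Windows of 30 bases are shown for Ier3 and Dusp1, which were higher in Model, and for Fos, with the pentamers in capitals, from chr17:35822476-35822505 (plus strand), chr17:26506167-26506196 (minus) and chr12:85477090-85477119 (plus).
Ier3: ctccgtgtctaattaatATTTAtgtATTTA
Dusp1: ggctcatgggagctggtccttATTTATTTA
Fos: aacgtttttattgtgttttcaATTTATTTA

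The Ier3 window holds separate pentamers, and in the Dusp1 and Fos windows they overlap by 1 base. In Ier2 the whole region of 755 bases held none.

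By FPKM averaged over the 12 mice, the genes covered a wide range of levels. Ier3 was the most abundant at 38.1 FPKM, followed by Dusp1 at 14.6, Ier2 at 10.5, Jun at 8.53 and Junb at 8.16. Nr4a1 (3.43), Egr1 (2.95), Atf3 (2.25) and Fos (1.56) were lower, and Fosb was the lowest at 0.0858 FPKM. Within groups, Ier3 reached 23.0 ± 5.52 FPKM (mean ± SD, n = 4) in Ctrl and 55.2 ± 9.39 in Model. Jun and Junb changed places between groups, with Jun at 9.54 ± 3.86 and Junb at 6.14 ± 1.24 in Ctrl but 8.85 ± 1.18 and 9.29 ± 0.780 in Model, and in neither group did they differ by more than their spread. Fos, the best known of these genes, was expressed at a low level in each group, between 1.13 ± 0.434 FPKM in Ctrl and 1.83 ± 0.992 in YHY.

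The comparison of Model with Ctrl asked what differs in diabetic kidney. Here 4 of the 10 genes were higher in Model, namely Ier3, Dusp1, Ier2 and Junb, by 1.51 to 2.40 fold, and no gene was lower, while with library size in place of TMM scaling 1 gene (Ier3) was higher, with the nuclear library size 6 were (Atf3 and Nr4a1 added), and in neither was any lower. Fos, Fosb, Jun, Egr1, Atf3 and Nr4a1 did not pass the test. Of all genes tested, 19.6% were called higher and 18.5% lower, so that a large part of the transcriptome differed in these mice and 4 of 10 has to be read against that share. The test was edgeR's quasi-likelihood test with Benjamini-Hochberg adjustment over all 17431 genes and a limit of 0.05.

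Ier3 encodes a short-lived protein that prolongs ERK phosphorylation and affects cell survival under stress. Its level in CPM was 20.6, 33.3, 21.0 and 29.1 in Ctrl 1 to 4, and 49.8, 61.4, 62.8 and 75.8 in Model 1 to 4. All Model mice lay above all Ctrl mice. Ier3 was higher by 1.27 on the log2 scale (2.40-fold, SE 0.23, 95% interval 0.77 to 1.76, adjusted P = 0.000608), and the exact permutation test, two-sided, gave P = 0.0286, the smallest that 4 against 4 mice allow. It was called in all 22 alternative settings, with a log2 fold change of 0.84 to 1.61.

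Dusp1, the dual specificity phosphatase that switches off p38, JNK and ERK, had 27.9, 33.3, 25.4 and 30.1 CPM in the Ctrl mice and 47.0, 55.5, 52.1 and 60.2 in the Model mice. The groups did not overlap, and the spread in each was small. Its log2 fold change was 0.88 (1.84-fold, SE 0.21, 95% interval 0.44 to 1.32, adjusted P = 0.00354, exact permutation P = 0.0286).

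Ier2, a nuclear protein that modulates transcription in the early response, had 10.4, 11.7, 11.8 and 12.0 CPM in Ctrl and 20.4, 20.6, 22.2 and 19.0 in Model. It was the tightest of the 10 genes within both groups, with a highest mouse only 1.16 times the lowest in each. The difference was 0.84 on the log2 scale (1.79-fold, SE 0.15, 95% interval 0.52 to 1.16, adjusted P = 0.000483, exact permutation P = 0.0286).

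Among the AP-1 genes Junb alone passed, and none did with library size alone. Its level was 12.2, 11.3, 15.7 and 17.3 CPM in Ctrl and 21.9, 23.7, 19.8 and 20.1 in Model, without overlap under TMM scaling. The log2 fold change was 0.60 (1.51-fold, SE 0.19, 95% interval 0.19 to 1.01, adjusted P = 0.0235, exact permutation P = 0.0286). The call was lost when single mice were left out, as the adjusted P rose to 0.105 without Ctrl 1, 0.0717 without Ctrl 2, 0.0648 without Model 1, 0.0681 without Model 2 and 0.123 in a fit of 9 mice (Ctrl 2, Model 1 and YHY 4 left out), in a range of 0.00357 to 0.654 over all alternatives.

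Jun, the main partner of Fos in AP-1, had 22.0, 30.8, 47.7 and 21.2 CPM in Ctrl and 33.8, 26.5, 25.7 and 26.9 in Model. Ctrl 3 was the highest of the 8, and all Model mice lay inside the Ctrl range. The fitted difference was −0.11 (95% interval −0.61 to 0.40, adjusted P = 0.754) and turned to 0.15 without Ctrl 3. Fos had 1.13, 3.03, 3.09 and 3.35 CPM in Ctrl and 4.99, 5.0, 3.38 and 2.74 in Model, with Ctrl 1 far below the other Ctrl mice. Its interval ran from −0.34 to 1.56 around a log2 fold change of 0.61 (adjusted P = 0.304), which holds both no difference and a 2-fold rise. Fosb stayed between 0.257 and 1.14 CPM in both groups (log2 fold change 0.65, adjusted P = 0.480).

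Atf3, a stress-induced factor that represses many of its targets, had 2.59, 3.09, 3.5 and 2.82 CPM in Ctrl and 5.25, 3.38, 6.30 and 5.90 in Model. Model 2 fell inside the Ctrl range and the other Model mice lay above it. Its log2 fold change of 0.80 (95% interval 0.04 to 1.55) had an unadjusted P of 0.0412 and an adjusted P of 0.0912, and it passed without YHY 2 (adjusted P = 0.0348) or YHY 3 (0.0446), mice of neither group that enter the shared estimate of spread, and in a fit of the 8 mice compared (0.0177, range over alternatives 0.0170 to 0.378).

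Nr4a1, an orphan nuclear receptor with roles in metabolism and inflammation, had 3.82, 10.8, 6.93 and 13.2 CPM in Ctrl and 21.2, 15.9, 13.9 and 16.1 in Model. The groups did not overlap, and the exact permutation test gave its smallest P of 0.0286, yet edgeR's adjusted P was 0.11 for a log2 fold change of 0.95 (SE 0.45, 95% interval −0.01 to 1.91). The wide interval came with the large spread of this gene in Ctrl and YHY mice, and the adjusted P was 0.0458 without YHY 3, 0.0198 in a fit of the 8 mice compared and 0.0184 with no filter on low counts (range over alternatives 0.0184 to 0.316).

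Egr1 (ENSMUSG00000038418, chr18:34992876-34998037, plus strand), which couples growth factor signals to many target genes, had 7.68, 15.8, 13.0 and 26.1 CPM in Ctrl and 10.5, 12.6, 18.2 and 9.62 in Model. The Model mice lay within the Ctrl range, and the log2 fold change was −0.30 (95% interval −1.17 to 0.57, adjusted P = 0.595), or 0.01 without Ctrl 4.

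Taking the groups as wholes, 5 of the 10 genes (Junb, Ier2, Ier3, Nr4a1 and Dusp1) did not overlap between Model and Ctrl, all with Model higher, where 19.9% of all genes did so. With CPM by library size alone Junb and Nr4a1 overlapped and 3 genes were left (9.33% of all genes), and with nuclear library size Fos and Atf3 were added and 7 did not overlap (31.3%). The median log2 fold change of the 10 was 0.72, beside 0.04 for all genes tested, and became 0.31 with library size alone (−0.39 for all genes) and 1.05 with nuclear library size (0.37). By the rule of the study, which asks for a 1.2-fold difference at an unadjusted P limit of 0.05, the 4 genes called above and Atf3 were higher, 5 in all, against 24.5% of all genes higher and 22.4% lower. Summed over the 10 genes under TMM scaling, Ctrl mice had 142 ± 22.2 CPM, Model mice 226 ± 8.51 and YHY mice 196 ± 60.8. As a share of all counts the sum was 0.0136% to 0.0209% in Ctrl, 0.0180% to 0.0227% in Model and 0.0117% to 0.0195% in YHY mice. By that share all groups overlapped.

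These calls depended on how libraries were put on a common scale, while the 4 called genes stayed above 0 in every scaling tried. The median of all genes in Model against Ctrl was 0.04 with TMM, −0.39 with library size alone, 0.14 with upper-quartile factors and 0.37 when mitochondrial counts were removed and the rest scaled by size alone. The share of called genes that were higher moved with it, from 51.5% with TMM to 21.4%, 60.6% and 77.8%. Less the median of all genes, the differences were 1.22 to 1.24 for Ier3, 0.84 to 0.85 for Dusp1, 0.79 to 0.80 for Ier2 and 0.54 to 0.56 for Junb over these scalings. Subtracting the median takes a shift of all genes out by construction, so the nearness of these values says nothing of how stable the calls are. With library size alone Ier3 was still called, while Dusp1 (log2 fold change 0.45, adjusted P = 0.0696, highest of its alternatives), Ier2 (0.40, 0.114, also the highest) and Junb (0.15, 0.654) were not. With the nuclear library size Atf3 (1.13, adjusted P = 0.0170, the lowest of its alternatives) and Nr4a1 (1.26, 0.0287) were called as well, and Jun and Egr1 went from below 0 to 0.23 and 0.0038 without passing. Over all genes 8.87% were called higher and 32.5% lower with library size alone, and 32.9% and 9.42% with the nuclear library size. When mitochondrial transcripts were removed and TMM was kept, the median of all genes was 0.04 and the same 4 genes were called.

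**Figure D1:**
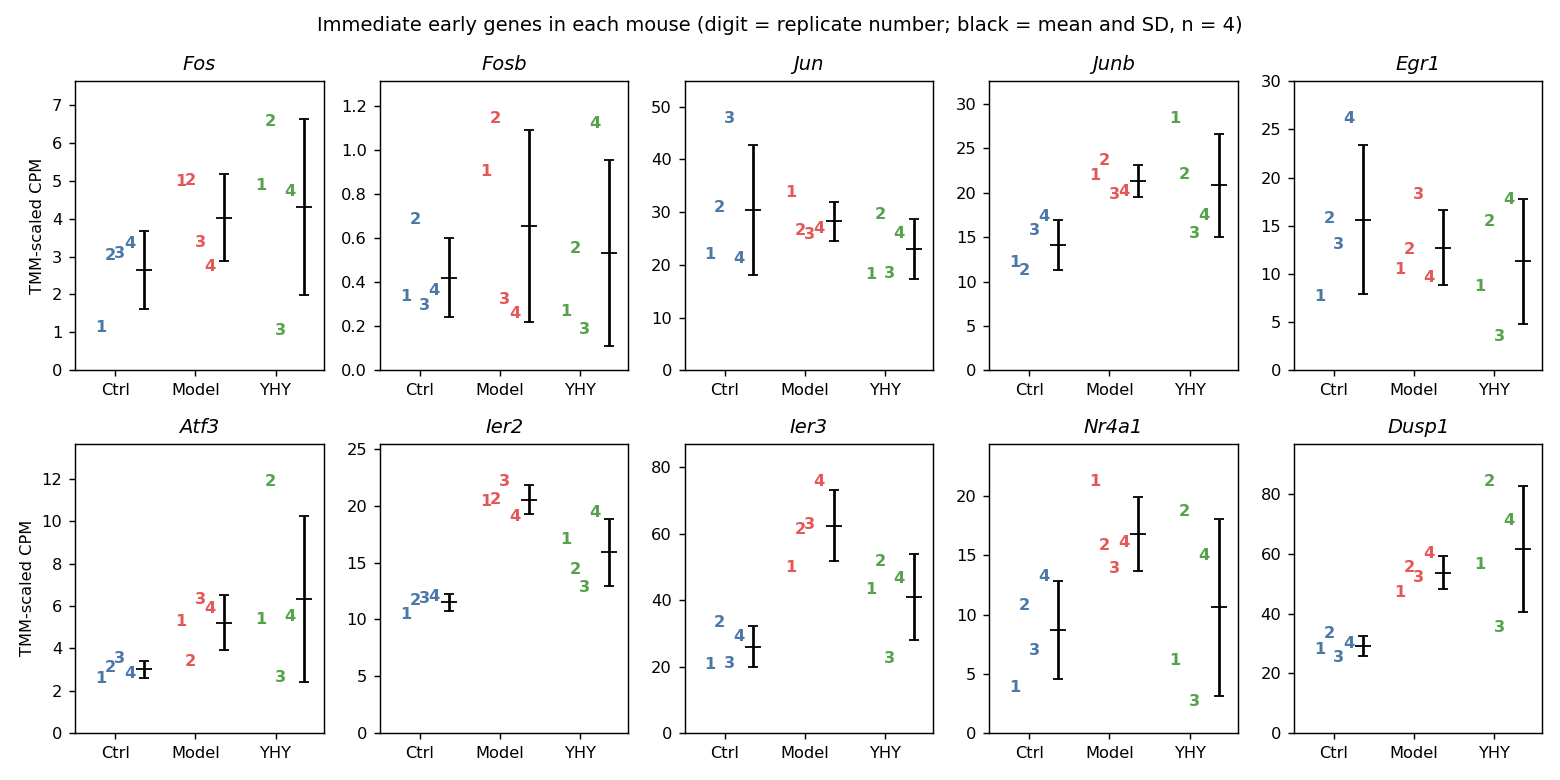
Level of each gene in TMM-scaled CPM (vertical axis, linear, from 0) in Ctrl, Model and YHY mice. Each digit is the mouse of that replicate number, and the black mark and bar give mean and SD of 4 mice. Ier2, Ier3, Dusp1, Junb and Nr4a1 separate Ctrl from Model without overlap under TMM scaling (Junb and Nr4a1 overlap with library size alone), and YHY 3 sits at the bottom of its group in all panels but that of Jun.

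**Figure D2:**
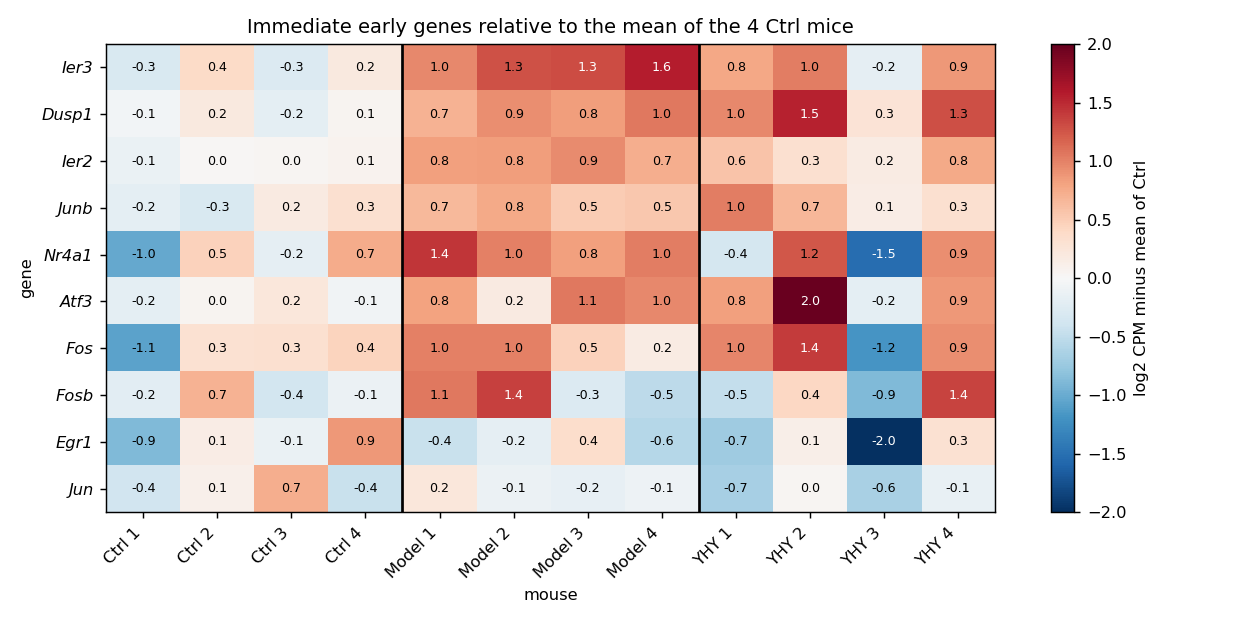
Log2 CPM of each gene (rows) in each mouse (columns) minus the mean of the Ctrl mice, in color from blue (lower) to red (higher) with the value printed. Under TMM scaling the rows Ier3, Dusp1, Ier2 and Junb are above 0 in all Model mice, and the column of YHY 3 is mostly below 0.

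The comparison of YHY with Model asked what the extract changed in db/db mice, and it shares the Model mice with the first comparison. None of the 10 genes passed edgeR's test in either direction, and DESeq2 also called 0, while 2 had an unadjusted P below 0.05. Over all genes, 5.63% were higher and 7.62% lower. By the rule of the study Ier3 and Ier2 were lower in YHY, 2 of 10 against 14.7% of all genes lower and 13.9% higher. No gene separated the groups without overlap, as 16.1% of all genes did in one direction or the other, though with CPM by library size alone Ier3 did, lower in YHY, where 6.66% of all genes were lower and 5.98% higher without overlap. The median of the 10 log2 fold changes was −0.23, beside 0.02 for all genes. Single mice moved this median, to 0.03 without YHY 3, −0.08 without Model 2, −0.14 without YHY 1 and −0.42 without YHY 4, and it was −0.12 with the nuclear library size and −0.36 with 9 mice.

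Ier3 had 43.3, 51.7, 22.4 and 46.4 CPM in YHY 1 to 4. Only YHY 2 reached into the Model range of 49.8 to 75.8. Against Model the log2 fold change was −0.61 (95% interval −1.10 to −0.12, unadjusted P = 0.0179, adjusted P = 0.0929, exact permutation P = 0.0571). It passed with no filter on low counts (adjusted P = 0.0316), in a range of 0.0316 to 0.211 over alternatives.

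Ier2 had 17.0, 14.4, 12.8 and 19.5 CPM in the YHY mice, between Ctrl and Model for the most part. YHY 4 alone lay inside the Model range. Ier2 differed by −0.37 (95% interval −0.68 to −0.05, unadjusted P = 0.0261, adjusted P = 0.118, exact permutation P = 0.0571), and without YHY 4 it was −0.48 with an adjusted P of 0.0422, the lowest of its alternatives, which reached 0.327.

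Dusp1 had 56.4, 84.4, 35.2 and 71.1 CPM in the YHY mice, 3 of them above or within the Model range and YHY 3 below it. The fitted difference was 0.20 (95% interval −0.23 to 0.64, adjusted P = 0.565). Junb, at 28.4, 22.1, 15.4 and 17.5 CPM, differed from Model by −0.04 (95% interval −0.45 to 0.37, adjusted P = 0.929), a value near 0 whose sign turned with the nuclear library size (0.11) and without Model 2 (0.01), YHY 3 (0.08) or YHY 4 (0.03). For Nr4a1, at 6.11, 18.7, 2.68 and 15.0 CPM, the mice split widely and the log2 fold change was −0.67 (95% interval −1.63 to 0.29, adjusted P = 0.357).

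For the remaining genes the fitted differences lay between −0.30 (Fosb and Jun) and 0.27 (Atf3), and adjusted P between 0.447 and 0.928. Atf3 ranged from 2.61 to 11.9 CPM in YHY, Fos from 1.04 to 6.58, Egr1 from 3.46 to 17.7, Jun from 18.1 to 29.6 and Fosb from 0.186 to 1.1. In each of these the YHY range reached beyond the Model range on at least 1 side. Single mice set the sign of several: it turned for Fos without Model 4 (−0.06) or YHY 2 (−0.19), for Fosb without Model 2 (0.09), for Egr1 without Model 3 (0.05) or YHY 3 (0.13) and for Atf3 without YHY 2 (−0.22). A P above the limit does not show that the groups were alike.

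**Figure D3:**
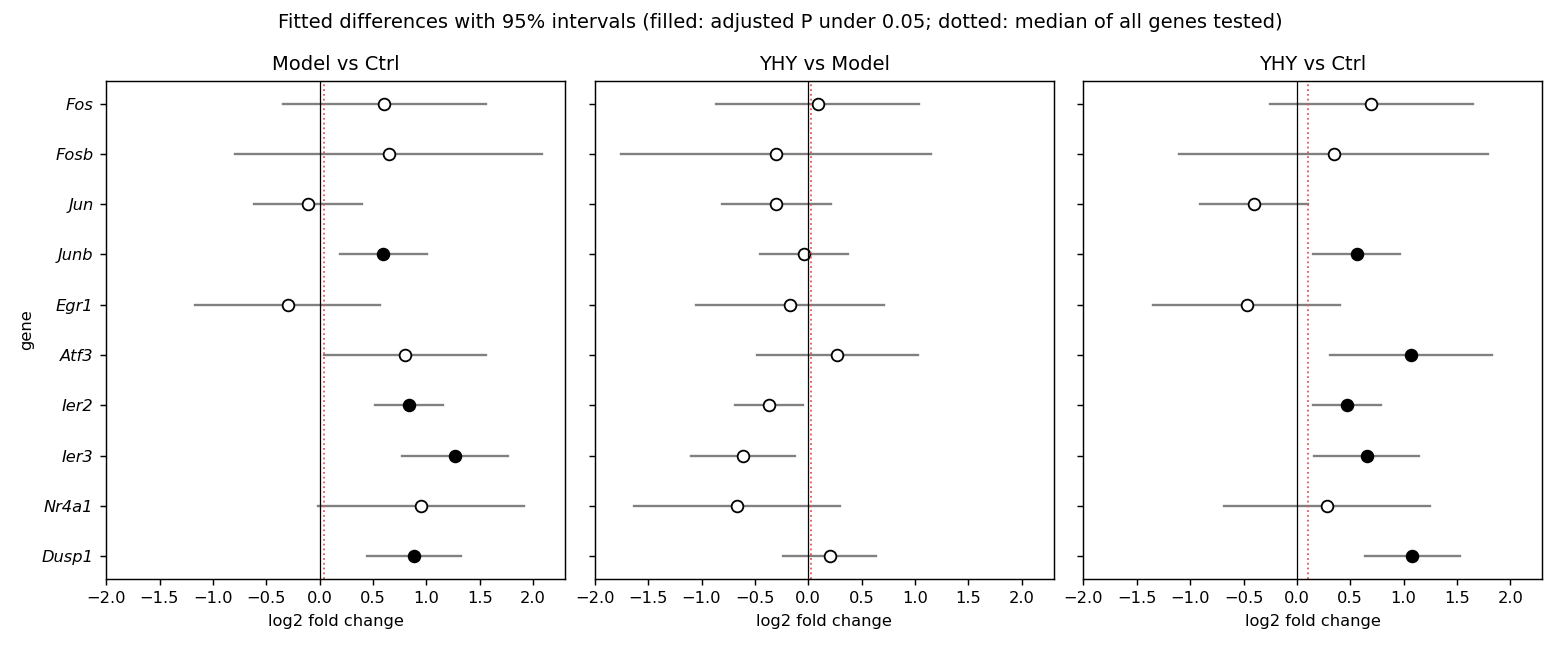
Fitted log2 fold change of each gene (horizontal axis) with its 95% interval in Model against Ctrl, YHY against Model and YHY against Ctrl. Filled points have an adjusted P under 0.05, and the dotted line is the median of all genes tested. Junb, Ier2, Ier3 and Dusp1 are filled on the left and none in the middle panel, under TMM scaling. With library size alone Ier3 would be the only one filled on the left.

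YHY against Ctrl was not a comparison the series planned, shares mice with both others and is given to place the 3 groups in order. Here 5 genes were higher in YHY and none lower, where 26.1% of all genes were higher and 24.2% lower. Dusp1 had a log2 fold change of 1.08 (2.12-fold, SE 0.21, adjusted P = 0.000464, exact permutation P = 0.0286) and was called in all 22 alternatives. Atf3 (1.07, adjusted P = 0.0208), Ier3 (0.66, 0.0270), Junb (0.56, 0.0244) and Ier2 (0.47, 0.0158) also passed. The exact permutation P was 0.114 for Atf3, 0.0857 for Ier3, 0.114 for Junb and 0.0286 for Ier2. Dusp1 and Ier2 separated the groups without overlap under TMM scaling, beside 21.9% of all genes, while with library size alone none was higher without overlap (11.7%) and Jun was lower (32.6%), and with nuclear library size 5 were higher (34.8%). The median of the 10 was 0.51 and that of all genes 0.10, which became 0.08 and −0.33 with library size alone and 0.98 and 0.57 with nuclear library size.

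Apart from that of Dusp1, these calls were fragile. Without Ctrl 1 only Dusp1 was left, 2 genes passed without Ctrl 3 or without YHY 2, and 3 without YHY 1 or without YHY 4. Junb lost its call without Ctrl 1, Ctrl 2, Ctrl 3, YHY 1 or YHY 2 (adjusted P 0.115, 0.0802, 0.0513, 0.112 and 0.0525, range over alternatives 0.000973 to 0.713). Atf3 lost it without Ctrl 1, Ctrl 4 or YHY 2 (0.0687, 0.0575 and 0.129, range 0.00178 to 0.182), and Ier2 without Ctrl 1, Ctrl 3 or YHY 4 (0.0905, 0.0571 and 0.0586, range 9.79e-05 to 0.883). Ier3 lost it without Ctrl 1, Ctrl 3, YHY 1, YHY 2 or YHY 4 (0.117, 0.115, 0.0527, 0.0899 and 0.0599, range 0.000743 to 0.490). In a fit of the 8 mice compared Junb (0.0657) and Ier3 (0.0568) were lost, with no filter Ier2 (0.0735), with 9 mice Junb, Atf3 and Ier2 (0.0692, 0.0568 and 0.111), and with library size alone all of these 4. Junb and Atf3 were also lost with the replicate block. Fos passed without YHY 3 (0.0283) and with the nuclear library size (0.0370, range 0.0283 to 0.723), and Jun was called lower without Ctrl 4 (0.0449, range 0.00653 to 0.828). With library size alone, Dusp1 stayed higher while Jun (−0.86, adjusted P = 0.00653) and Egr1 (−0.99, adjusted P = 0.0393, range 0.0393 to 0.900) were called lower, in a setting where the median of all genes was −0.33. Of the genes not called, Nr4a1 (0.28) turned to −0.04 without Ctrl 1 and −0.14 without YHY 2, and Fosb (0.34) to −0.35 without YHY 4.

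Side by side, the mean levels followed different orders. For Ier3 they were 26.0 ± 6.24 CPM in Ctrl, 40.9 ± 12.9 in YHY and 62.5 ± 10.6 in Model, and for Ier2 11.5 ± 0.728, 15.9 ± 2.93 and 20.5 ± 1.28, with YHY in between but not separated from Model by the test. Dusp1 rose from 29.2 ± 3.36 in Ctrl to 53.7 ± 5.56 in Model and 61.8 ± 21.1 in YHY, where the last 2 did not differ beyond their spread. Junb (14.1 ± 2.86, 21.4 ± 1.80 and 20.8 ± 5.75) had close means in the db/db groups. Jun (30.4 ± 12.3, 28.2 ± 3.75 and 23.0 ± 5.71) and Egr1 (15.6 ± 7.74, 12.7 ± 3.87 and 11.3 ± 6.50) had their highest mean in Ctrl, with no neighbours separated.

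Variation between mice was itself a feature of these genes. The SD of log2 CPM within groups was 0.88 for Nr4a1, 0.84 for Fosb, 0.82 for Fos and 0.78 for Egr1, then 0.57 for Atf3, 0.40 for Ier3, 0.39 for Jun, 0.34 for Dusp1, 0.29 for Junb and 0.17 for Ier2. The median over all genes tested was 0.36, and 7 of the 10 lay above it. Low genes vary more through counting alone, so each was also set beside genes within 0.5 of its own mean log2 CPM, and 8 of the 10 exceeded the median of those. For Nr4a1 that median was 0.30 and for Egr1 0.28, far below their own values, whereas Fosb (0.87) varied like other genes of its level and Ier2 (0.26) varied less.

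**Figure D4:**
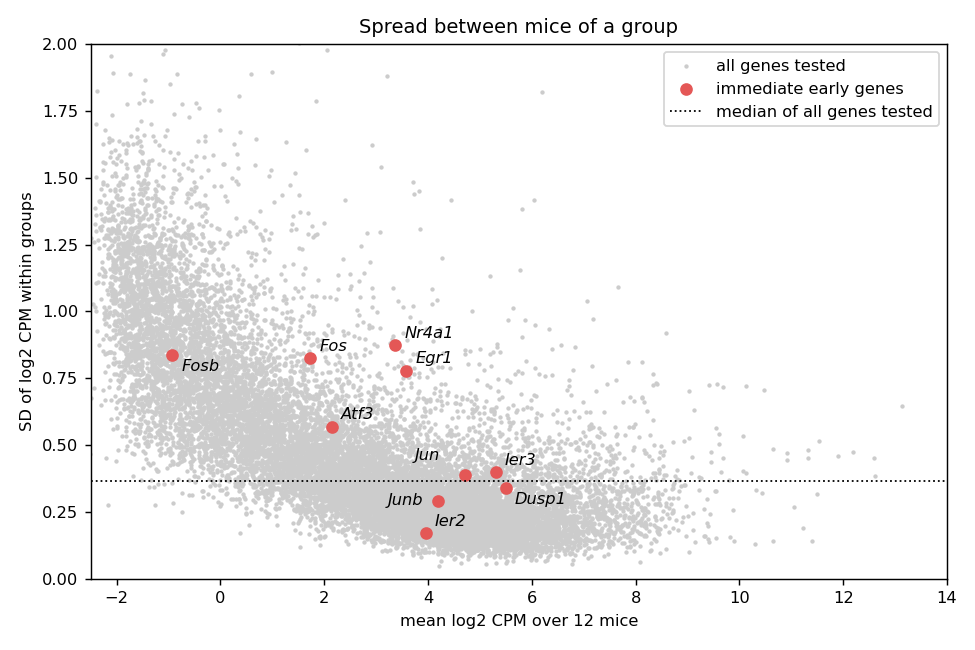
SD of log2 CPM within groups (vertical axis) against mean log2 CPM over 12 mice (horizontal axis) for all genes tested (grey) and the 10 genes (red), with the median of all genes as a dotted line. The view stops at an SD of 2. Nr4a1, Egr1 and Fos stand above most genes of their level, and Ier2 lies low in the cloud.

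The spread was uneven over groups and gathered in single animals. Within YHY, the highest mouse exceeded the lowest 6.97 times for Nr4a1, 6.31 times for Fos, 6.04 times for Fosb, 5.12 times for Egr1 and 4.56 times for Atf3. Under TMM scaling YHY 3 had the lowest level of its group in 9 of the 10 genes, all but Jun, and YHY 2 the highest in 6, which became 7 and 2 by library size alone and 8 and 6 by nuclear library size. In Ctrl, Ctrl 1 was lowest in 6 genes (Fos, Egr1, Atf3, Ier2, Ier3 and Nr4a1) and Ctrl 4 highest in 5, or 7 in both other scalings. In Model the lowest values were spread over all 4 mice under TMM, while by library size alone Model 1 was lowest in 0 genes and highest in 6. Shares over all genes of such lowest and highest places are not given here. The counts are therefore not shown to be particular to the 10 genes.

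Expressed as the median over the 10 genes of log2 CPM minus the Ctrl mean, the Model mice lay at 0.81, 0.89, 0.66 and 0.63, and the YHY mice at 0.67, 0.84, −0.42 and 0.87. By this median under TMM scaling YHY 3 was below every Ctrl mouse (−0.26 to 0.17) and the other YHY mice lay within the Model range. Gene by gene it was below all Ctrl mice in 5 of the 10 and above all of them in 2, Ier2 (12.8 CPM) and Dusp1 (35.2 CPM). The place of YHY 3 depended on the scaling. By library size alone its median was −0.67 and it was above all Ctrl mice in 0 genes and below them in 7. By nuclear library size, chosen after seeing the data, its median of 0.14 lay inside the Ctrl range of −0.24 to 0.25, and it was above all Ctrl mice in 5 genes (Junb, Atf3, Ier2, Ier3 and Dusp1) and below them in 2. The other YHY mice were then at 1.23, 1.26 and 1.18, beside 0.97 to 1.23 in Model, and by library size alone at 0.43, 0.08 and 0.38, beside 0.12 to 0.59. Shares over all genes for the counts above and below the Ctrl mice are not given here, so these are not shown to be particular to the 10. The median log2 fold change of all genes in YHY against Ctrl was 0.10 under TMM, −0.33 by library size alone and 0.57 by nuclear library size. YHY 3 had 26187322 counts in total and a mitochondrial share of 54.6%, both inside the range of the other YHY mice. It had the most genes with counts of its group, 22250 beside 21347, 20382 and 22103 in YHY 1, 2 and 4. Its library size after TMM scaling was also the largest of its group, with a TMM factor of 1.03 beside 1.04, 0.72 and 0.87. The part of depth in the low levels of YHY 3 was not tested. Markers of the thick ascending limb, Umod and Slc12a1, summed to 1926 CPM in YHY 3 beside 1241, 809.5 and 1116 in YHY 1, 2 and 4. Slc12a1 made most of this, at 1570 CPM in YHY 3 beside 1011, 712 and 807. Umod was at 356 CPM in YHY 3, close to the 309 of YHY 4, and at 229 and 97.2 in YHY 1 and 2. Leukocyte markers summed to 326, 471, 216 and 177 CPM in YHY 1 to 4, of which Lyz2 made 232, 362, 115 and 118. Others of the list went another way, as Csf1r (42.2, 50.2, 62.8 and 27.1) and C1qa (11.6, 7.13, 13.1 and 11.9) were highest in YHY 3. The part of cell composition in these mouse to mouse differences was not tested.

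The 10 genes did not all move as 1 block between mice. A profile was made from their deviations from the group means, each scaled to the same SD, and averaged. Correlated with this mean, which contains each of them, Fos reached r = 0.95, Nr4a1 0.93, Egr1 0.90, Dusp1 0.85 and Ier3 0.82, while Fosb (0.60), Jun (0.49) and Junb (0.46) followed it less. The mean deviation was −1.68 in YHY 3 and −0.76 in Ctrl 1, and 0.88 in YHY 2 and 0.71 in YHY 4.

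Outside the 10, the 8 genes most like this profile among 14121 compared over the 12 mice were the tyrosine kinase gene Ptk2b (Pearson r = 0.97, Spearman rho = 0.83), Fkbp11 (0.94 and 0.85), Lrwd1 (0.94 and 0.71), Asgr1 (0.94 and 0.78), Cotl1 (0.93 and 0.85), Zup1 (0.92 and 0.76), the motor protein gene Myo6 (0.92 and 0.69) and the alarmin Il33 (0.91 and 0.74). Without YHY 3 and Ctrl 1, the mice farthest from the median of the profile, r over the other 10 mice was 0.90 for Ptk2b and 0.64 for Il33, with the others in between. These are descriptions picked as the highest of many, without a test. Between groups these genes went different ways: Ptk2b was lower in Model than in Ctrl (log2 fold change −0.65, adjusted P = 0.00202) and Il33 higher (1.36, adjusted P = 0.000482). None of the 8 belongs to the wider early gene lists below. Of all genes compared, 12.0% had an r above 0.5, beside 3 of 13 other early transcription factors and 9 of 34 other early response genes. In the other wider lists 4 of 20 upstream genes, 1 of 11 heat shock genes and 1 of 12 genes raised by low oxygen did.

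Wider lists place the 10 genes among their relatives. They were drawn up with earlier results of these data known, and are given as counts and medians beside all genes. Over all genes 19.6% were higher and 18.5% lower in Model against Ctrl, with a median log2 fold change of 0.04. Of 15 other immediate early transcription factors tested (of 19 listed), 6 were higher in Model than in Ctrl and 0 lower, with a median of 0.43, and 3 were higher without Ctrl 3. Of 35 other early response and feedback genes, 13 were higher and 1 lower, with a median of 0.36 (0.20 without Ctrl 2, 0.22 without Ctrl 3, 0.24 without Model 1 and 0.11 with 9 mice), and the lower count was 2 without Ctrl 1, Ctrl 2, Model 1, YHY 2 or YHY 4 or with DESeq2, 3 with 9 mice and 4 with the 8 mice compared. Of 20 kinases and factors upstream, 5 were higher and 5 lower, near the shares over all genes, with a median of −0.01 (−0.09 to 0.04 with 1 mouse left out). The higher count of this list was 2 without Ctrl 1 or Ctrl 3 or with no filter and 3 without Ctrl 4 or any Model mouse, and the lower count was 3 without Model 4 or with upper-quartile factors. With library size alone, where 8.87% of all genes were higher and 32.5% lower, the counts of the 3 lists became 2 and 0, 7 and 6, and 1 and 7, with medians of 0.02, −0.09 and −0.44. With the nuclear library size, where 32.9% were higher and 9.42% lower, they became 9 and 0, 18 and 1, and 8 and 1, with medians of 0.75, 0.67 and 0.32. In YHY against Ctrl, under TMM, 7 of the 15 early transcription factors were higher and 1 lower, 17 and 3 of the 35 early response genes, and 6 and 7 of the 20 upstream genes, beside 26.1% higher and 24.2% lower over all genes. Scaled by library size alone, these became 4 and 2, 10 and 5, and 2 and 9 (13.6% and 34.3% of all genes), and by nuclear library size 11 and 1, 25 and 1, and 7 and 2 (43.9% and 12.6%).

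Several of these relatives differed more than the 10 themselves. The circadian and stress-responsive gene Per1 had 14.8 ± 5.88 CPM in Ctrl and 89.0 ± 17.1 in Model (log2 fold change 2.59, 6.01-fold, adjusted P = 5.42e-05), and all Model mice (65.1 to 106) lay above all Ctrl mice (8.29 to 20.8). Plk3, a polo-like kinase of the stress response, went from 5.02 ± 1.21 to 34.3 ± 8.68 CPM (2.77, 6.84-fold, adjusted P = 0.000125). Csrnp1, a nuclear protein induced by cytokines, went from 4.39 ± 0.645 to 16.6 ± 2.40 CPM (1.92, 3.78-fold, adjusted P = 1.8e-05). Ppp1r15a, which restores translation after stress (1.31, adjusted P = 3.6e-05), Klf2 (0.92, adjusted P = 0.000917) and Cebpb (1.05, adjusted P = 0.00375) were higher as well. Klf2 was no longer called with library size alone (adjusted P = 0.105, the highest of its alternatives), the others were called in all 22.

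The lower one was Hbegf, the gene of a growth factor that signals through the EGF receptor, at 10.2 ± 0.475 CPM in Ctrl and 5.35 ± 0.747 in Model (−0.93, adjusted P = 0.000524). Upstream, the ribosomal S6 kinase gene Rps6ka1 was higher (1.10, adjusted P = 3.39e-05) and Creb1, whose product binds the CRE, lower (−0.84, adjusted P = 0.000771). Both were called in all 22 alternatives.

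In YHY against Model, where 5.63% of all genes were higher and 7.62% lower, 1 of the 15 early transcription factors was higher and 2 were lower (median 0.06, but −0.09 without YHY 4, −0.06 without YHY 2, 0.04 without Model 2, 0.15 without Model 3 or Model 4 and 0.28 without YHY 3), and 5 of the 35 early response genes were higher and 1 was lower (median 0.21, or 0.37 with the nuclear library size). The median of the transcription factors was 0.01 with library size alone, 0.18 with the nuclear library size and −0.02 with the replicate block. It was 0.14 in the fit of the 8 mice compared and 0.15 with a minimum of 10 counts in every mouse. The 5 fell to 1 with library size alone (2.82% of all genes), to 2 without Ctrl 1, Ctrl 3, Model 2, Model 3, Model 4 or YHY 1 and to 3 without Ctrl 4, Model 1 or YHY 2 or in a fit of the 8 mice compared. Of the transcription factors, 2 were higher without YHY 3, 3 were higher without YHY 4 and 1 was lower without Model 3. The higher count was also 2 with DESeq2, the nuclear library size, no filter, a minimum of 10 counts or 9 mice, and the lower count 1 with library size alone or a minimum of 10 counts in every mouse and 0 with 9 mice. Myc had 4.6, 2.81, 1.92 and 2.82 CPM in Model 1 to 4 and 9.88, 5.25, 8.90 and 11.8 in YHY 1 to 4. Under TMM scaling all YHY mice were above all Model mice. Myc was called (log2 fold change 1.55, 2.94-fold, adjusted P = 0.00951), also in all 22 alternatives. Jund, the AP-1 gene with a steady level in most tissues, went the other way, from 50.7 ± 8.63 to 29.2 ± 6.58 CPM (−0.79, adjusted P = 0.00741), and was not called with library size alone (adjusted P = 0.0548, the highest of its alternatives) or in a fit of 9 mice without Ctrl 2, Model 1 and YHY 4 (0.0504). Nr4a3, a relative of Nr4a1, fell from 0.607 ± 0.0920 CPM to 0.0757 ± 0.0608 with YHY 2 at 0, too few counts for a reliable fold (adjusted P = 0.0198, 0.0572 without Model 3 and 0.0691 in the fit of 9 mice, range 0.00351 to 0.0691).

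Among the feedback genes, the salt-inducible kinase gene Sik1 was at 29.7 ± 3.29 CPM in Model and 57.7 ± 8.71 in YHY (0.96, 1.95-fold, adjusted P = 0.00082), beside 27.2 ± 1.70 in Ctrl. Hbegf was at 8.89 ± 0.688 CPM in YHY, higher than in Model (0.73, adjusted P = 0.0118), but not called with library size alone (0.0726, its highest). Pim1 (0.75, adjusted P = 0.0383) passed in only 11 of 22 alternatives (range 0.0121 to 0.121), being lost without any of Ctrl 1, 3 and 4, Model 2, 3 and 4 and YHY 1 and 3 (0.0548 to 0.105), with library size alone (0.121), with no filter (0.0523) and in a fit of the 8 mice compared (0.0617). Ccn1, a matricellular target of serum response factor, was lower (−1.14, adjusted P = 0.0262) and lost its call without Model 2, 3 or 4 or YHY 1, 2 or 3 (0.0501 to 0.0814, range over alternatives 0.000379 to 0.0814). Upstream, 4 of 20 genes were higher and 3 lower, led by the CREB coactivator gene Crtc2 (0.84, adjusted P = 0.00245) and the MAP kinase kinase gene Map2k2 (−0.96, adjusted P = 0.000884), beside 5.63% and 7.62% of all genes. The 4 fell to 1 with library size alone or without Model 3, and to 2 without any 1 of the Ctrl mice, Model 1, Model 2, Model 4 or YHY 2, in the fit of 8 mice or with the replicate block.

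**Figure D5:**
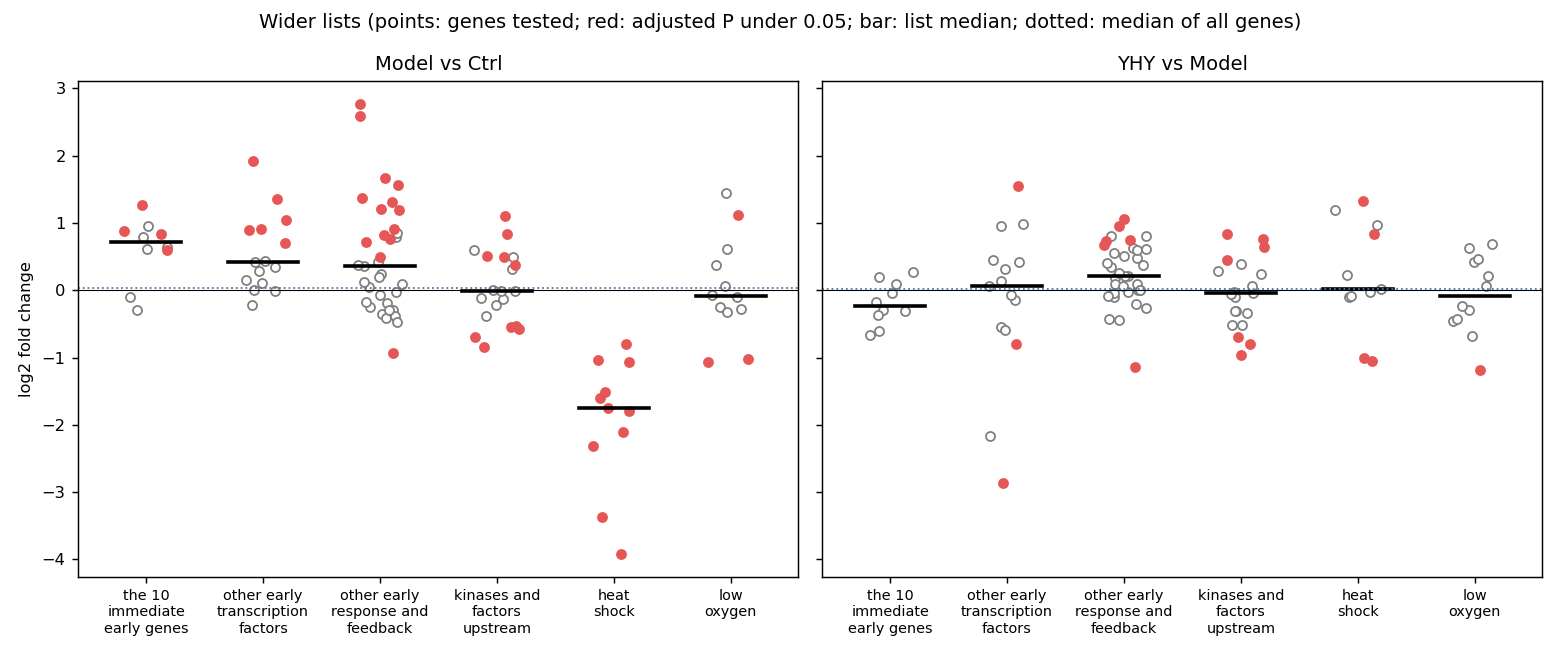
Log2 fold change (vertical axis) of each tested gene of the 10 early genes and of the 5 wider lists, in Model against Ctrl (left) and YHY against Model (right). Points in red have an adjusted P under 0.05, the bar is the median of a list and the dotted line that of all genes. The heat shock genes lie below 0 in Model while most called early genes lie above it, and with library size alone the early lists would move down to medians of 0.02 and −0.09.

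Heat shock genes, which are also induced when tissue is handled or warmed, were counted as a further list. All 11 listed were lower in Model than in Ctrl (18.5% of all genes were), with a median log2 fold change of −1.74, and 10 or 11 were lower in each other scaling. The co-chaperone gene Dnaja1 was at 278 ± 26.0 CPM in Ctrl and 64.9 ± 9.96 in Model (−2.10, adjusted P = 4.08e-07), and YHY mice had 63.6 ± 6.97 CPM. Ctrl mice had the higher level of these 11 genes and, under TMM scaling, the lower level of Ier3, Dusp1, Ier2 and Junb. Whether handling had a part in either was not tested. In YHY against Model 2 of the 11 were higher and 2 lower (5.63% and 7.62% of all genes), and the higher count fell to 0 with library size alone or without Model 2, Model 3 or YHY 1 and to 1 without Ctrl 3, Model 1, Model 4 or YHY 3. Among them were Hspb1 at 1.32 (adjusted P = 0.0330, lost with library size alone at 0.0665 and without Model 2, 3 or 4 or YHY 1 or 3 at 0.0600 to 0.120, range 0.000385 to 0.120) and Hspd1 at −1.01 (adjusted P = 0.00405). In YHY against Ctrl 10 of the 11 were lower (24.2% of all genes).

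Genes raised by low oxygen, a state that follows loss of blood flow, were counted in the same way. In Model against Ctrl, with 19.6% of all genes higher and 18.5% lower, 1 of 12 was higher, the carbonic anhydrase gene Car9 (1.11, adjusted P = 0.00894, not called with library size alone at 0.0812, its highest), and 2 were lower, led by Bnip3 (−1.07, adjusted P = 1.77e-05). The median was −0.08, in a range of −0.52 with library size alone to 0.23 with the nuclear library size, and was 0.02 with upper-quartile factors and between −0.18 and −0.04 with 1 mouse left out. The higher count was 0 with library size alone, 3 with the nuclear library size and 2 without Model 1, YHY 1 or YHY 4, with DESeq2, upper-quartile factors, no filter or the replicate block and in the fit of 8 mice. With library size alone the lower count was 4, where 8.87% of all genes were higher and 32.5% lower. In YHY against Model, with 5.63% of all genes higher and 7.62% lower, Car9 alone was called, lower (−1.19, adjusted P = 0.0191, and 0.0665 without Model 4, its highest), and 2 genes were lower without YHY 4 or in the fit of 9 mice. No gene was higher there, but 1 was without YHY 1 or YHY 3 and with DESeq2, upper-quartile factors, the nuclear library size, no filter or a minimum of 10 counts. In YHY against Ctrl 2 of the 12 were higher and 3 lower, beside 26.1% and 24.2% of all genes, and the higher count was 0 with library size alone and 1 without Ctrl 1, Ctrl 3, Ctrl 4, YHY 2 or YHY 4, with no filter or with 9 mice.

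Cells other than tubule cells also express early genes, and their markers are given beside them. Of all genes tested, 19.6% were higher and 18.5% lower in Model against Ctrl, and 5.63% and 7.62% in YHY against Model. In YHY against Ctrl the shares were 26.1% and 24.2%. Of the 10 leukocyte markers, 8 could be tested, and in Model against Ctrl Cd68 was higher (1.05, adjusted P = 0.00730) and C1qa lower (−1.08, adjusted P = 0.00147). The markers summed to 206, 139, 208 and 177 CPM in Ctrl and 186, 200, 239 and 300 in Model, with Lyz2 the most abundant. Lyz2 had 102, 65.7, 103 and 77.4 CPM in Ctrl 1 to 4 and 121, 114, 159 and 185 in Model 1 to 4. The T cell and B cell markers Cd3e and Ms4a1 had at most 0.576 CPM. Blood markers, of which Hba-a1 and Hbb-bs were the most abundant, summed to 458, 306, 373 and 686 CPM in Ctrl and 476, 430, 293 and 271 in Model, with 3 of the 5 lower in Model (Hbb-bs at −1.46, Hbb-bt at −1.17 and Alas2 at −1.87) and Hba-a2 higher (0.70). Slc12a3 of the distal tubule (1.33), Nphs1 of the podocyte (1.86), Pdgfrb of pericytes and fibroblasts (0.51) and the adrenal marker Star (1.32) were higher in Model, and Aqp2 of the collecting duct (−1.18) and Lrp2 (−1.68) were lower, with adjusted P from 5.44e-05 (Nphs1) to 0.0452 (Hba-a2) for these and the blood markers. The other proximal tubule markers did not pass (Slc34a1 at 0.06, Slc5a2 at 0.42 and Slc5a12 at 0.79). Of the 4 endothelial markers none passed the test. For the thick ascending limb the sums were 1761, 961, 2050 and 2046 CPM in Ctrl and 1021, 849, 663 and 1006 in Model, with Umod lower (−2.86, adjusted P = 5.43e-05) while Slc12a1 did not pass (−0.05, adjusted P = 0.910). Of the injured tubule markers, Havcr1 was lower in Model (−4.84, adjusted P = 8.25e-05) and Lcn2 (−1.10, adjusted P = 0.167) and Krt20 (1.78, adjusted P = 0.222) did not pass. In YHY against Model the markers called were Hbb-bs (1.29, adjusted P = 0.0280), Alas2 (1.71, 0.0274), Lcn2 (2.06, 0.0381) and Myh11 of smooth muscle (0.56, 0.0439), all higher. In YHY against Ctrl the leukocyte markers Cd68 (1.79, adjusted P = 7.67e-05) and Lyz2 (1.25, 0.00355) were higher and C1qa (−0.65, 0.0231) lower. Slc5a12 was called higher there (2.11, adjusted P = 0.0363) with 9.12, 24.7, 19.1 and 223 CPM in YHY 1 to 4 beside 11.6, 25.4, 23.4 and 3.69 in Ctrl 1 to 4, so that YHY 4 alone lay above the Ctrl range. Outside the leukocyte list Slc12a3, Nphs1, Pdgfrb, Hba-a1, Hba-a2 and Star were higher too (0.75 to 1.62), and Lrp2, Umod, Aqp2, Podxl and Havcr1 lower (−6.50 to −0.999). The part of cell composition, of handling and of the mitochondrial share in the levels of the early genes was not tested.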

How the data were processed

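Kidney mRNA of 12 mice (4 Ctrl, 4 Model and 4 YHY by the labels) was measured. The authors deposited raw counts of reads for each gene and mouse with gene lengths and positions, and the submitters' processing notes list FastQC 0.11.9, Trimmomatic 0.39, HISAT2 2.2.1, SAMtools 1.12, featureCounts 2.0.1, DESeq2 1.34.0 and the build GRCm39. The annotation release and the use of strand in counting are not given in the sources used here. The authors' 2 comparison tables hold group means, fold changes, p-values and pathway counts and were not used, nor were 12 columns of values per mouse in them.

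Counts were analysed with edgeR 4.0.16 in R 4.3.3 (TMM scaling, filterByExpr, quasi-likelihood test, 1 fit of the 3 groups with 12 mice, two-sided, Benjamini-Hochberg adjustment over 17431 genes, limit 0.05). Log2 CPM used a prior count of 2, and FPKM used the deposited lengths. Each gene was in addition tested on log2 CPM by exact permutation of the 8 mice compared, 4 against 4. Alternatives were DESeq2 1.42.0, 4 other scalings, 2 other filters, fits of 8 or 9 mice, a replicate block and leaving out each mouse. Scaling by nuclear library size and all alternatives for the wider lists were chosen after seeing the data. Scripts were tested on simulated data. Promoters came from RefSeq (GRCm38.p6) and 3′ UTRs from GENCODE M21 (GRCm38), and no coordinates were converted between builds.

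The 10 genes and all lists were chosen with earlier results of these data known. Named from the wider lists were the called genes of lowest adjusted P in each direction, 3 from each early list and 1 from each other list, for Model against Ctrl and likewise for YHY against Model. The 8 genes of like pattern had the highest Pearson r among genes with a mean CPM of at least 1. Replicate libraries differed by a chi-square of 17.3 to 139 per degree of freedom, so none was a copy of another.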

Additional observations from a re-analysis of the deposited data

Results flagged for a closer look

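In 30 sets of 4 mice (10 genes in 3 groups), 2 values stood apart from the other mice of their group by a gap past the 95% critical value of Dixon's ratio (the gap to the nearest mouse divided by the group's range), and chance alone gives such a gap in about 1 of 20 sets. Fos in Ctrl 1 was at 1.13 CPM beside 3.03, 3.09 and 3.35 in the other Ctrl mice (gap 0.856 of the range). Jun in Model 1 was at 33.8 CPM beside 25.7, 26.5 and 26.9 in the other Model mice (0.859 of the range). Their causes were not tested.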

How the results depend on the processing

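In Model against Ctrl 4 genes were called, in YHY against Model 0 and in YHY against Ctrl 5. DESeq2, upper-quartile factors, removal of mitochondrial transcripts and a minimum of 10 counts gave the same counts, while the shares over all genes moved. In that order, Model against Ctrl had 21.5% higher and 20.1% lower, 23.1% and 15%, 19.9% and 19.3%, and 22.7% and 21.3%. YHY against Model had 8.23% and 9.67%, 6.2% and 7.34%, 6.39% and 7.45%, and 8.2% and 9.75%. YHY against Ctrl had 27.8% and 25.2%, 30% and 20.7%, 27.2% and 24.5%, and 29.9% and 27.7%. With library size alone 1 gene was called for Model against Ctrl, higher (8.87% of all genes higher and 32.5% lower), 0 for YHY against Model (2.82% and 3.94%) and 3 for YHY against Ctrl, Dusp1 higher and Jun and Egr1 lower (13.6% and 34.3%). Nuclear library size, chosen after seeing the data, gave 6, 0 and 6, all higher (32.9% and 9.42%, 8.93% and 4.90%, 43.9% and 12.6%). No filter gave 1 in YHY against Model (3.55% of all genes higher and 4.61% lower), and the rule of the study gave 2 (13.9% and 14.7%). Fits of only the 8 mice compared gave 6 genes for Model against Ctrl (22.2% of all genes higher and 24.2% lower) and 3 for YHY against Ctrl (23.5% and 25.2%). With 9 mice, without Ctrl 2, Model 1 and YHY 4, 2 were called in YHY against Ctrl (23.2% and 25.5%). Leaving out 1 mouse gave 3 to 6 genes for Model against Ctrl, 0 to 1 for YHY against Model and 1 to 6 in YHY against Ctrl. Over all genes these fits called 14.1% to 20.3% higher and 14.4% to 20.9% lower in Model against Ctrl. In YHY against Model they called 2.32% to 5.89% higher and 4.02% to 9.46% lower. For YHY against Ctrl the shares were 20.9% to 25.3% and 22.3% to 25.7%.

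Same-numbered mice did not deviate together (r −0.17 to 0.12, and 4 of 12 correlated best with their own number), so numbers were not taken as a pairing. With the replicate block 5 genes were called in Model against Ctrl (Nr4a1 added, adjusted P = 0.0428), 1 in YHY against Model (Ier3, 0.0497) and 3 in YHY against Ctrl (Junb and Atf3 lost). Of all genes, 18.4% were then higher and 17.7% lower in Model against Ctrl. The shares were 4.55% and 6.47% in YHY against Model and 24.4% and 23.9% in YHY against Ctrl. Fos in YHY against Model turned to −0.0068.

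Log2 fold changes of genes that were not called turned sign as follows. With library size alone Fosb (−0.12) and Nr4a1 (−0.26) did in YHY against Ctrl. With nuclear library size Jun (0.23) and Egr1 (0.0038) did in Model against Ctrl, Junb (0.11) in YHY against Model and Jun (0.060) in YHY against Ctrl. With 8 mice Junb was at 0.015 in YHY against Model, and with 9 mice Junb was at 0.066 there and Fosb at −0.064 in YHY against Ctrl. Leaving out 1 mouse moved Jun from −0.30 to 0.15 and Egr1 from −0.58 to 0.010 in Model against Ctrl. In YHY against Model it moved Fos from −0.19 to 0.41, Fosb from −0.99 to 0.088, Junb from −0.23 to 0.081, Egr1 from −0.48 to 0.13 and Atf3 from −0.22 to 0.53. In YHY against Ctrl it moved Fosb from −0.35 to 0.67 and Nr4a1 from −0.14 to 0.60. The causes were not tested. Depth limits Fosb most, the gene with the fewest counts and the widest intervals of the 10.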
